A study of Homo sapiens with 9 samples.

Results

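The proteasome subunit genes were taken as every protein-coding gene whose symbol starts with PSMA, PSMB, PSMC, PSMD, PSME, PSMF or PSMG and ends in a number. This rule found 47 of the 31589 genes listed in the 3 tables of read counts. Of these, 46 were listed in the table of VPA against vehicle and 47 in each of the other 2 tables. They were told apart by role into 8 alpha ring subunits (PSMA), 4 structural and 3 catalytic beta ring subunits, 3 immunoproteasome subunits, 6 base ATPases (PSMC), 3 other base subunits, 8 lid subunits, 3 assembly chaperones of the 19S particle, 5 activators and inhibitors (PSME, PSMF), and 4 assembly chaperones of the 20S core (PSMG).

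The proteasome degrades proteins that carry a ubiquitin chain. Its barrel, the 20S core, is made of outer rings of alpha subunits, which gate the entrance, and inner rings of beta subunits, of which PSMB6, PSMB7 and PSMB5 carry the active sites. The 19S particle caps the barrel: its lid and base bind and deubiquitinate the substrate, and its ring of ATPases unfolds it and threads it inside. Interferon induces alternative catalytic subunits, PSMB9, PSMB10 and PSMB8, which replace PSMB6, PSMB7 and PSMB5 in newly built cores and change the peptides offered to MHC class I. In proliferating neural tissue the constitutive form is the usual one, and NFE2L1 is the best known activator of its genes.

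The samples were human spinal cord organoids, 3-dimensional cultures that model the developing neural tube, grown from the induced pluripotent stem cell line WTC, which the labels give with the genotype WT. All 9 libraries came from whole organoids after 96 h of the labelled treatment, 3 libraries in each group. The groups were vehicle (organoids kept in FGF), VPA (valproic acid, an antiseizure drug that inhibits histone deacetylases) and VPA+Rapamycin (valproic acid together with rapamycin, an inhibitor of the mTOR kinase). By the study's account VPA was given together with FGF, so vehicle was not the only group with FGF. In the study's text the organoids came from edited clones of the line that carry a SOX10-driven reporter, several organoids were pooled for RNA, and a shorter exposure is also described. In its vehicle and VPA sequencing data the study shows a pool of organoids from each clone as a column. Its legend for a heatmap of all groups refers back to that one. By the study's account, some of the clones also carried indels on the other SOX10 allele. The codes of the libraries in the labels recur in all groups, but they are not the names of the clones. The libraries of a group may thus differ by clone, and same-numbered libraries may share a clone. The labels themselves say neither this nor that libraries were separate cultures, so p-values here measure the spread between these libraries, whatever its source, which may be technical. The labels give no dose, and no group had rapamycin alone. The 3 comparisons share libraries, and their results are not independent of each other.

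Total counts per library ran from 15290299 to 17417338, with a median of 16702150. Neural progenitor markers (SOX2, PAX6, SOX1, NES) summed to between 22519 and 25512 normalized counts in vehicle, 23962 and 25611 under VPA and 23115 and 24876 with rapamycin added, so that the groups overlapped. Other markers moved with the treatments. Neuron markers summed to 14800 to 24994 in vehicle and 11893 to 13258 in VPA (4 of 5 lowered), and mesenchyme markers to 2249 to 4811, 9195 to 11765 and 4013 to 6081 in vehicle, VPA and VPA+Rapamycin (2 of 6 tested raised by VPA, 5 of 6 lowered in VPA+Rapamycin against VPA). Over all genes tested, 16.4% rose and 15.7% fell in VPA against vehicle, and 3.01% rose and 3.73% fell in VPA+Rapamycin against VPA. In whole organoids, fewer cells of a type and less RNA per cell cannot be told apart.

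The promoters below are those of PSMB9, the subunit with the largest fold change, and of PSMB3, PSMC3 and PSMD1, subunits of the beta ring, ATPase ring and base that VPA raised. They were read from RefSeq (GRCh38.p14), 5′ to 3′ on the strand of each gene, and hold the bases before the start site that no annotated exon covers: chr6:32853979-32854147 (plus strand, 169 bases) for PSMB9, chr17:38752491-38752735 (plus strand, 245 bases) for PSMB3, chr11:47426474-47426689 (minus strand, 216 bases) for PSMC3 and chr2:231056617-231056863 (plus strand, 247 bases) for PSMD1. Capitals mark matches on either strand to the core of the antioxidant response element, TGACNNNGC, which NFE2L1 and its relative NFE2L2 bind, and to the CCAAT box, to which NF-Y binds.
PSMB9: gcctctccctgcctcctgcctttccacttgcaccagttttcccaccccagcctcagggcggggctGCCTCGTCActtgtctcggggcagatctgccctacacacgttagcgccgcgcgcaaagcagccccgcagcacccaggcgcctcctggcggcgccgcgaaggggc
PSMB3: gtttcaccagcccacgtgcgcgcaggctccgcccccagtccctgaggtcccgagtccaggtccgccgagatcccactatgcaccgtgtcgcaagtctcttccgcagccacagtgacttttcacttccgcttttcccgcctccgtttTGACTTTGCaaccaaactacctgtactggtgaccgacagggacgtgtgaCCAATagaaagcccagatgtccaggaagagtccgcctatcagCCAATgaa
PSMC3: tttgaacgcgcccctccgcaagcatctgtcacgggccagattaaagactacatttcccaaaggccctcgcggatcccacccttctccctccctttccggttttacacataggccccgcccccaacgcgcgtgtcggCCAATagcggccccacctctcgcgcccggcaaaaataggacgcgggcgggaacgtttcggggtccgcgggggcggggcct
PSMD1: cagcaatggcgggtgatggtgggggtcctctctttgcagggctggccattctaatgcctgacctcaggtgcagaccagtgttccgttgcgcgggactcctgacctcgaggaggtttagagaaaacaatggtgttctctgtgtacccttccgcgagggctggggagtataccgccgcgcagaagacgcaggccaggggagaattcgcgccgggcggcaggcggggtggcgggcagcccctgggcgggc
Motifs of 5 kinds were searched on both strands in the 250 bases before the RefSeq start site of the 41 subunits present in the promoter table. The antioxidant response element core was found in 11 of the 41 (26.8%), against 10.9% of all 35116 promoters, and in 3 of the 10 raised subunits with an entry (PSMB3, PSMB9, PSMG1). It was also found in PSMD5, which fell, and in subunits that were not called. The CCAAT box was found in 17 (41.5%), against 32.0% of all, and in 6 of the 10 raised subunits. Matches to the core of the interferon-stimulated response element, GAAANNGAA, were present in 5 (12.2%, against 6.88%), to the gamma-activated site, TTCNNNGAA, in 5 (12.2%, against 6.57%), and to the AP-1 site, TGANTCA, in 1 (2.44%, against 6.57%). Of the 10 raised subunits, 1, 1 and 0 held these 3 motifs, in that order. The gamma-activated site can overlap the interferon-stimulated element, and subunit promoters were richer in G and C, with a median of 61.6% against 58.0%. PSMA7, PSMB1, PSMB6, PSMB7, PSMD4 and PSMG3 had no entry. The PSMD1 promoter shown above holds no match to any of the 5 motifs. A match is a description of the letters and not of binding. The PSMB9 start site (chromosome 6, position 32854192, plus strand) lies 488 bases from that of TAP1, the peptide transporter gene on the minus strand. The window before the TAP1 start holds 2 overlapping matches to the interferon-stimulated element, beginning 133 and 127 bases before that start. They lie between the 2 start sites, outside the 250 bases searched before PSMB9. The PSMB9 window holds no match to this element but does not reach that stretch.

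In VPA against vehicle, 12 of the 45 tested subunits rose (26.7%) and 2 fell (4.44%), where 16.4% of the 17360 genes tested rose and 15.7% fell. Most of the changes were small: apart from PSMB9, the raised subunits rose by between 22.8% and 47.9%. The 36 subunits with a higher estimate, raised or not, outnumbered the 9 with a lower one. Of all genes tested, 8636 had a higher estimate and 8724 a lower. The median log2 fold change was 0.24 over the subunits and -0.0030 over all genes tested. Among the 12569 protein-coding genes at least as abundant as the least abundant 26S subunit, 18.7% rose, 16.9% fell and the median was 0.020. Summed over all 47 subunits, the reads were 0.314% ± 0.0097 of counts in vehicle, 0.377% ± 0.0059 under VPA and 0.362% ± 0.0083 with rapamycin added (SD, n = 3). The lowest VPA library, at 0.373%, stood above the highest vehicle library, at 0.322%, and the VPA+Rapamycin libraries, from 0.352% to 0.367%, stood between them.

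These counts came from edgeR's quasi-likelihood test with Benjamini-Hochberg adjustment at 0.05, fitted over all genes, and depended on the libraries. The number raised was 20 without vehicle library 1, 7 without vehicle library 2, and 5, 4 and 5 without VPA library 1, 2 and 3. The shares of all genes called in the same fits are not given here. The swing from 4 to 20 was thus not shown to be particular to the subunits. PSMB3, PSMB9, PSMD1 and PSME3 stayed raised and PSMA1 stayed lowered under every alternative that tested them. The calls of PSMB1, PSMB4, PSMC3, PSMD2, PSMD4, PSMD5, PSMD6, PSMF1 and PSMG1 were each lost under at least 1 alternative, with adjusted p-values up to 0.16. The number lowered was 1 without vehicle library 2 or any of the VPA libraries, and 3 without vehicle library 1. With the replicate number as a block, 9 rose and 1 fell, and PSMB1, PSMD5, PSMD6 and PSMF1 were no longer called.

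**Figure D1:**
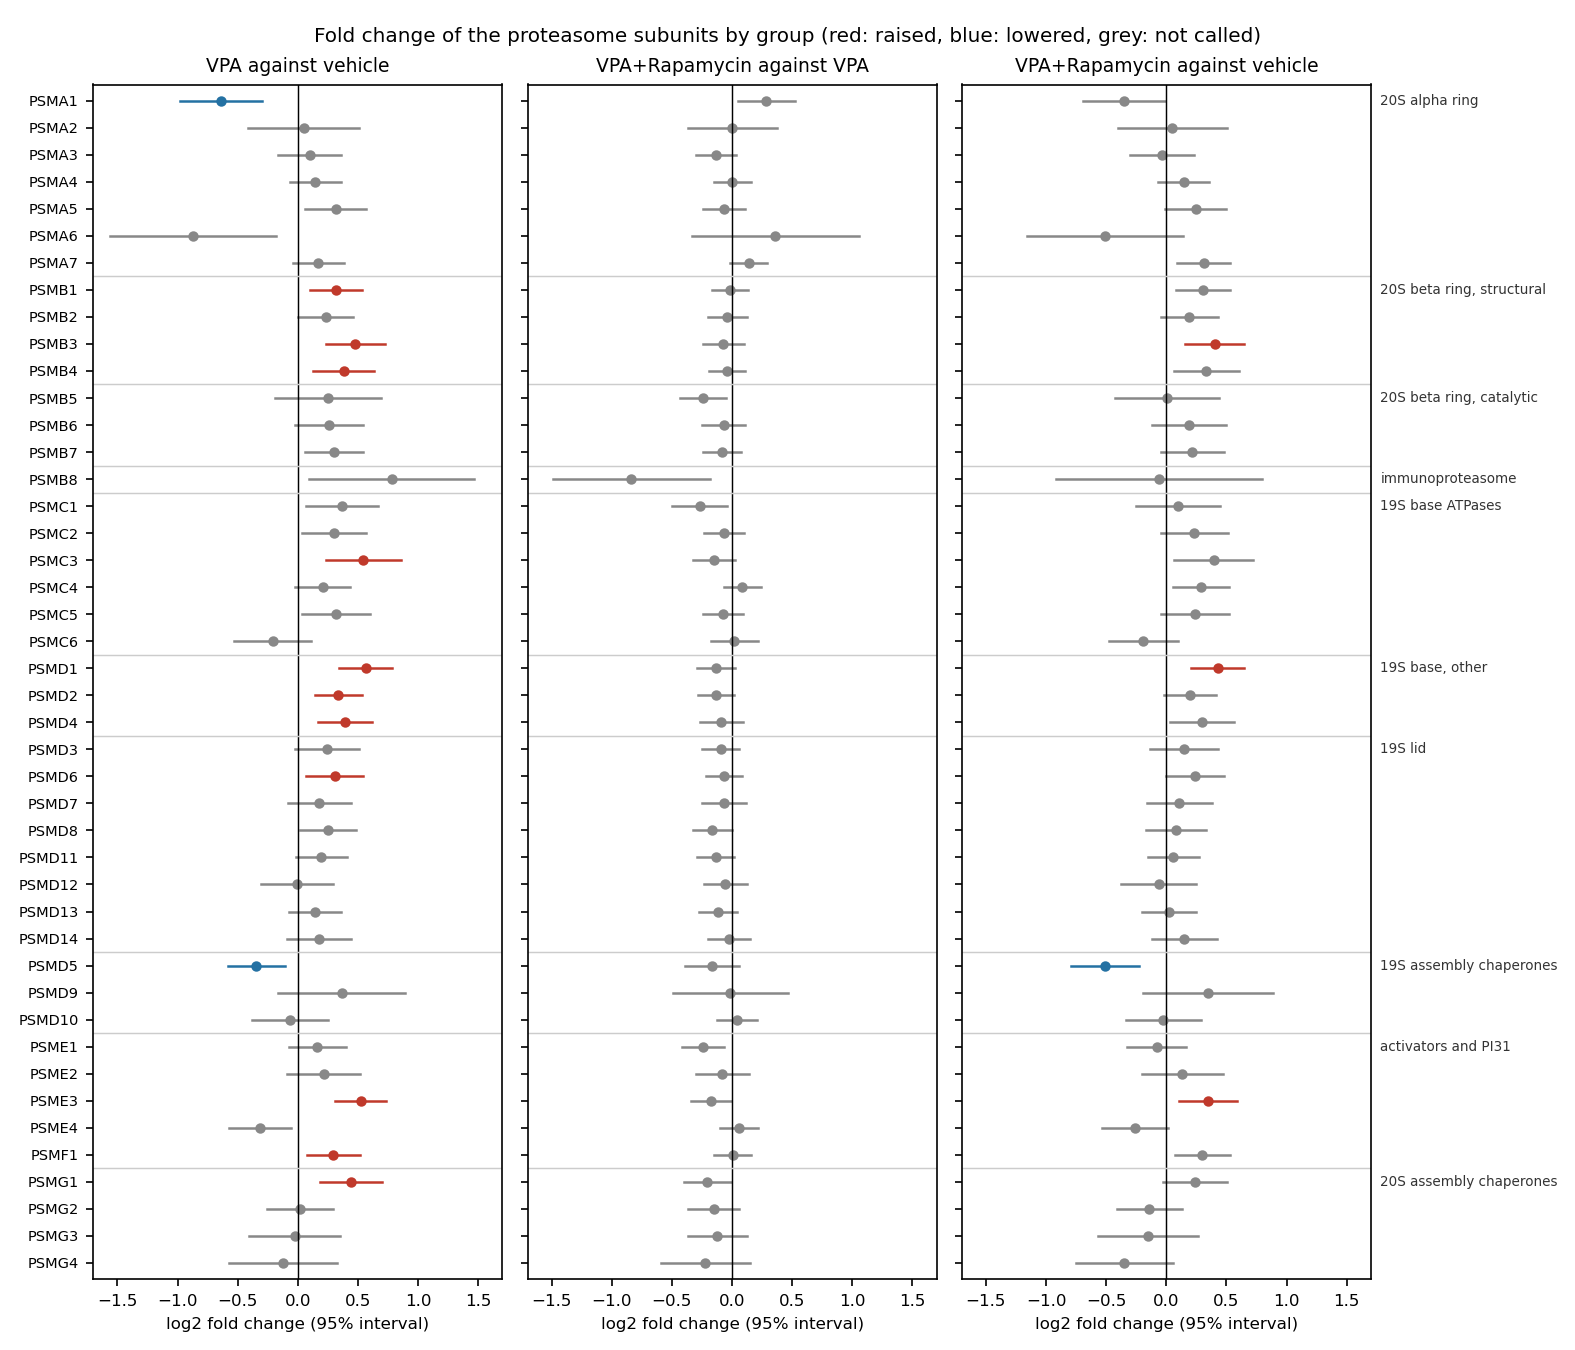
Log2 fold change with its 95% interval for 44 subunits in the 3 comparisons, grouped by role. Red points were raised, blue points lowered and grey points not called (edgeR, adjusted p of at most 0.05). PSMB9, PSMB10 and PSMA8 are left out. In VPA against vehicle most points lie right of 0, and in VPA+Rapamycin against VPA all are grey.

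The 3 constitutive catalytic subunits had higher estimates in VPA than in vehicle, and none passed the test. PSMB7 (trypsin-like activity, chr9:124353466-124415444) had 1814, 1675 and 1428 normalized counts in vehicle, 1985, 2115 and 1999 under VPA and 2072, 1879 and 1795 with rapamycin added. All VPA libraries exceeded all vehicle libraries, and the log2 fold change was 0.30 (SE 0.11, edgeR adjusted p = 0.057). PSMB6 (caspase-like activity, chr17:4796144-4798503) had 997, 860 and 714 in vehicle, 1014, 1028 and 1059 under VPA and 1074, 980 and 896 with rapamycin added. Its estimate in VPA was 0.26 (SE 0.13, edgeR adjusted p = 0.15). PSMB5 (chymotrypsin-like activity, the main target of proteasome inhibitors, chr14:23016543-23035230) had 1589, 1205 and 804 in vehicle, 1257, 1422 and 1638 under VPA and 1202, 1298 and 1141 with rapamycin added. Its vehicle libraries spread widely and overlapped both other groups, and its log2 fold change in VPA was 0.25 with a 95% interval from -0.19 to 0.69. DESeq2 also called 0 of the 3, and 1 of the 3 had an unadjusted p under 0.05. Under other settings PSMB7 passed the test with upper-quartile scaling, with library totals alone and in the fit over all 9 libraries (edgeR adjusted p = 0.042, 0.039 and 0.034). Without vehicle library 1, PSMB7, PSMB6 and PSMB5 each passed (edgeR adjusted p = 0.011, 0.018 and 0.023).

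The immunoproteasome subunits were rare, and PSMB9 had the largest fold change of all subunits. PSMB9 (ENSG00000240065, chr6:32844136-32859585, plus strand) had 4, 5 and 2 counts in vehicle, 26, 44 and 32 under VPA and 6, 16 and 8 with rapamycin added. All VPA libraries stood above all others. It was 8.55-fold higher in VPA than in vehicle (log2 fold change 3.10, 95% interval 1.97 to 4.23, edgeR adjusted p = 0.0013), and the ratio of summed counts, 102 against 11, was 8.85 (4.74 to 18.3, exact interval for counting error only). In VPA+Rapamycin it was 0.299 times its VPA level (log2 fold change -1.74, SE 0.46, edgeR adjusted p = 0.028). That call was lost without VPA library 2 or 3, without VPA+Rapamycin library 1 or 3, and in a fit over all 9 libraries, with adjusted p-values up to 0.16. Between VPA+Rapamycin and vehicle PSMB9 was under the filter on low counts, and its summed counts stood at 30 against 11, a ratio of 2.64 (1.29 to 5.84, counting error only). With the spread between libraries that difference did not pass: the adjusted p was 0.35 by edgeR with no filter, 0.36 by DESeq2 and 0.11 by edgeR in the fit over all 9 libraries.

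PSMB8 (ENSG00000204264, chr6:32840717-32844703, minus strand) had 39, 37 and 22 counts in vehicle, 53, 61 and 64 under VPA and 21, 46 and 31 with rapamycin added. The VPA libraries lay above all the others, but the difference did not pass the test in VPA against vehicle (log2 fold change 0.78, 95% interval 0.093 to 1.47, edgeR adjusted p = 0.078) or in VPA+Rapamycin against VPA (-0.84, -1.49 to -0.18, adjusted p = 0.12). PSMB10 (ENSG00000205220, chr16:67934502-67937087) did not share the pattern: it had 13, 5 and 6 counts in vehicle, 5, 3 and 11 under VPA and 7, 15 and 9 with rapamycin added, below the filter, and the groups overlapped. Its ratio of summed counts was 0.756 in VPA against vehicle (0.391 to 1.44) and 1.65 in VPA+Rapamycin against VPA (0.905 to 3.10). PSMB10 shares 1516 bases with AC040162.1 on the same strand, which had 265% of the PSMB10 count. The part of this overlap in the PSMB10 counts and ratios was not tested. Set per kilobase against the subunit that it replaces, PSMB9 amounted to 0.206% ± 0.083 of PSMB6 in vehicle, 1.53% ± 0.46 under VPA and 0.479% ± 0.24 with rapamycin added. PSMB8 amounted to 1.68% ± 0.28, 2.40% ± 0.21 and 1.56% ± 0.51 of PSMB5, and PSMB10 to 0.468% ± 0.19, 0.292% ± 0.19 and 0.521% ± 0.21 of PSMB7 (SD, n = 3). No replacement exceeded 2.58% of its constitutive partner in any library. The ratios rest on the listed gene lengths. These were 3072 bases for PSMB9 and 1448 for PSMB6, and 2997 for PSMB8 and 1765 for PSMB5. They were 1853 for PSMB10 and 1787 for PSMB7.

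Several measured facts stand beside the PSMB9 result. Its listed span contains all 8770 bases of TAP1 on the other strand, and TAP1 had 945% of the PSMB9 count on average, so that without stated use of strand the reads of the 2 genes cannot be fully told apart. PSMB9 also overlaps PSMB8 over 568 bases. Immune cells carry the immunoproteasome as their usual form. Of 6 immune markers, PTPRC and TYROBP were not listed, and the others (AIF1, CSF1R, CD14, LAPTM5) summed to 8.79 to 30.7 normalized counts in vehicle, 16.3 to 24.4 under VPA and 19.6 to 27.1 with rapamycin added, with overlapping groups and 0 genes tested in VPA against vehicle. The mesenchyme marker sums, like PSMB9, were highest in VPA, but the markers did not all move alike. COL1A1 and COL1A2 rose in VPA against vehicle (log2 fold change 1.11 and 2.12). LUM (0.41), TWIST1 (0.65), COL3A1 (-0.49) and PRRX1 (-0.43) were not called. The part of mesenchymal cells in the PSMB9 level was not tested.

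**Figure D2:**
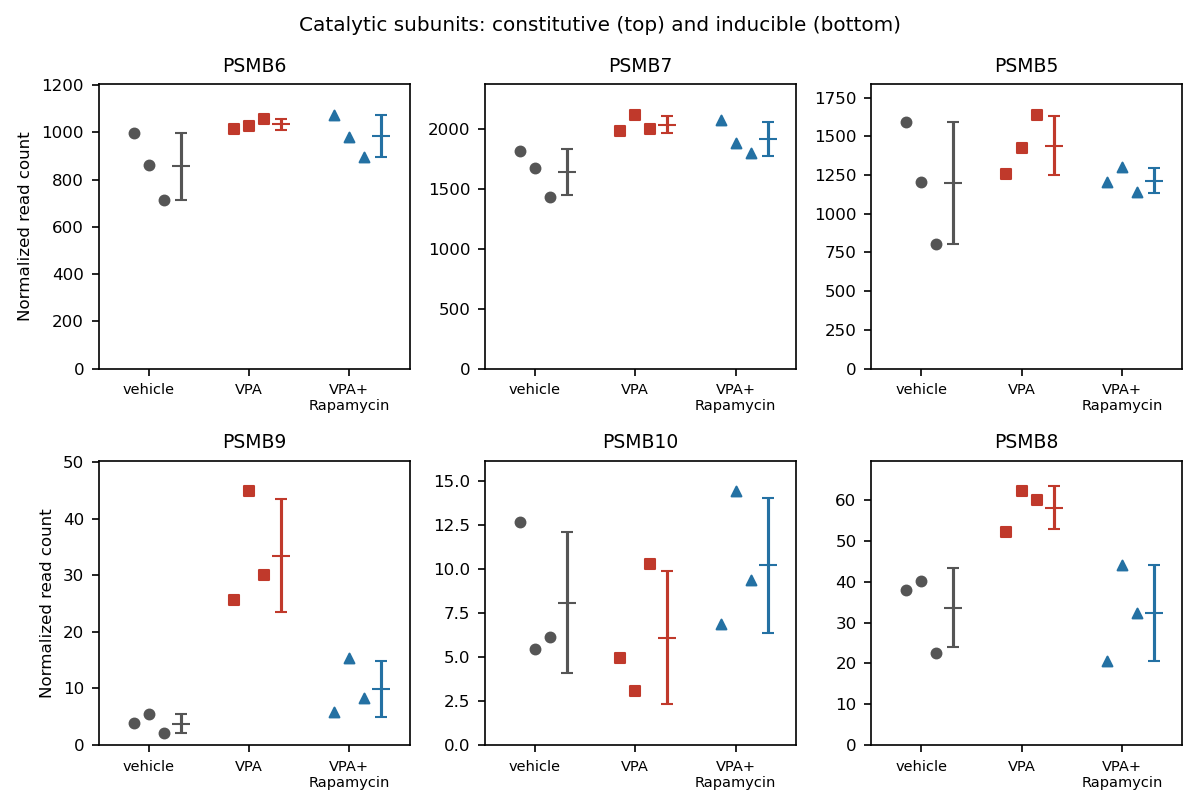
Normalized read count per library (points) with the mean and SD per group (bars, n = 3) for the constitutive catalytic subunits PSMB6, PSMB7 and PSMB5 (top) and for PSMB9, PSMB10 and PSMB8, which replace them (bottom). All 3 VPA libraries stand above the other 6 for PSMB9 and PSMB8, and the groups overlap for PSMB10.

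Of the structural beta subunits, 3 of 4 rose under VPA, against 16.4% of all genes, and the median was 0.35 on the log2 scale. PSMB3 had 933, 832 and 824 normalized counts in vehicle, 1148, 1178 and 1305 under VPA and 1161, 1213 and 1075 with rapamycin added. It rose in both treated groups against vehicle (log2 fold change 0.48, SE 0.11, edgeR adjusted p = 0.0079 in VPA, and 0.40, SE 0.11, adjusted p = 0.028 in VPA+Rapamycin). PSMB4 had 2489, 2301 and 1854 in vehicle, 2876, 2868 and 2964 under VPA and 2882, 2896 and 2638 with rapamycin added, and rose by 0.38 in VPA (SE 0.12, edgeR adjusted p = 0.027). PSMB1 had 1403, 1281 and 1308 in vehicle, 1646, 1718 and 1653 under VPA and 1606, 1696 and 1655 with rapamycin added, and rose by 0.32 in VPA (SE 0.098, edgeR adjusted p = 0.029). For all 3 genes the vehicle libraries lay below every treated library. PSMB2 had an estimate of 0.23 (edgeR adjusted p = 0.11).

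In the alpha ring, 0 of 7 tested subunits rose and 1 fell under VPA, against 16.4% and 15.7% of all genes, and on 7 genes these counts are near those shares. The median was 0.097 and the range ran from -0.87 to 0.31. DESeq2 also called 0 raised, and 1 had an unadjusted p under 0.05 with a higher estimate. PSMA1 (chr11:14504874-14643635) had 378, 419 and 534 normalized counts in vehicle, 293, 287 and 282 under VPA and 358, 329 and 362 with rapamycin added. All VPA libraries were lower than all others, and PSMA1 fell by 0.64 on the log2 scale in VPA (SE 0.16, edgeR adjusted p = 0.0098), opposite to most other core subunits. Its estimate between VPA+Rapamycin and VPA was 0.28 (edgeR adjusted p = 0.15). PSMA6 had an estimate of -0.87 (edgeR adjusted p = 0.054), from 44 to 64 normalized counts in vehicle and 26 to 36 in VPA. For the 5 others the estimates lay between 0.049 and 0.31. PSMA1 and PSMA6 each overlap another gene on the same strand, AC018523.2 over 15471 bases and AL121594.1 over 38842 bases. The part of these overlaps in the PSMA1 and PSMA6 estimates was not tested. PSMA8, the alpha subunit of germ cells, had 0 counts in 8 libraries and 3 counts in VPA+Rapamycin library 2, and it was not tested in any comparison. A count of 0 does not mean that a transcript was absent.

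In the base of the 19S particle, 3 of 3 non-ATPase subunits rose in VPA, against 16.4% of all genes. PSMD1, the large scaffold that docks ubiquitin receptors, had 1734, 1886 and 1856 normalized counts in vehicle, 2816, 2844 and 2500 under VPA and 2560, 2362 and 2486 with rapamycin added. It was 47.9% higher in VPA (log2 fold change 0.56, SE 0.10, edgeR adjusted p = 0.0018) and also rose in VPA+Rapamycin against vehicle (0.43, SE 0.10, adjusted p = 0.015). PSMD2, the other scaffold, had 3513, 3473 and 3342 in vehicle, 4327, 4390 and 4430 under VPA and 4194, 4023 and 3720 with rapamycin added, and rose by 0.34 in VPA (SE 0.089, edgeR adjusted p = 0.014). PSMD4, an intrinsic ubiquitin receptor, had 1777, 1707 and 1502 in vehicle, 2282, 2124 and 2178 under VPA and 2275, 2108 and 1789 with rapamycin added, and rose by 0.39 in VPA (SE 0.10, edgeR adjusted p = 0.014). Vehicle libraries were the lowest of the 9 for each of these 3 genes.

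Of the 6 ATPases, 1 rose in VPA, which is near the 16.4% of all genes. PSMC3 had 1279, 1087 and 838 normalized counts in vehicle, 1480, 1626 and 1600 under VPA and 1420, 1532 and 1279 with rapamycin added, and rose by 0.54 (SE 0.14, edgeR adjusted p = 0.014). Its VPA libraries were all above its vehicle libraries, although the vehicle libraries differed widely among themselves. The others had estimates from -0.21 (PSMC6) to 0.37 (PSMC1), of which PSMC1 had an edgeR adjusted p of 0.058. In the lid, 1 of 8 subunits rose, also near that share, and the estimates ran from -0.0058 to 0.31. PSMD6 had 1167, 1227 and 1387 in vehicle, 1534, 1603 and 1573 under VPA and 1502, 1465 and 1518 with rapamycin added, and rose by 0.31 (SE 0.11, edgeR adjusted p = 0.048). PSMD14, the deubiquitinase of the lid, had an estimate of 0.18 with a 95% interval from -0.092 to 0.44.

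Among the assembly chaperones the directions were mixed. PSMD5, a chaperone of the ATPase ring, had 957, 970 and 974 normalized counts in vehicle, 721, 816 and 766 under VPA and 781, 577 and 692 with rapamycin added. It fell in both treated groups, by 0.34 in VPA (SE 0.11, edgeR adjusted p = 0.032) and by 0.51 in VPA+Rapamycin (SE 0.13, edgeR adjusted p = 0.021), and all treated libraries were lower than all vehicle libraries. PSMD9 and PSMD10 did not pass the test (0.37 and -0.063, edgeR adjusted p = 0.27 and 0.77). PSMG1, which with PSMG2 starts the alpha ring, had 414, 467 and 438 in vehicle, 598, 620 and 587 under VPA and 511, 536 and 515 with rapamycin added. It rose by 0.44 in VPA (SE 0.12, edgeR adjusted p = 0.015), with VPA libraries above VPA+Rapamycin libraries and both above vehicle. Its partner PSMG2 had an estimate of 0.015 with a 95% interval from -0.26 to 0.29.

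Of the activators, PSME3 (PA28 gamma, the nuclear cap) rose and the interferon-inducible PSME1 and PSME2 (PA28 alpha and beta) did not pass the test. PSME3 had 1582, 1662 and 1519 normalized counts in vehicle, 2341, 2345 and 2212 under VPA and 2233, 1867 and 1994 with rapamycin added. It was 43.8% higher in VPA (log2 fold change 0.52, SE 0.096, edgeR adjusted p = 0.0022) and rose by 0.35 in VPA+Rapamycin against vehicle (SE 0.11, edgeR adjusted p = 0.046). PSME1 and PSME2 had estimates of 0.16 and 0.21 in VPA, with 95% intervals from -0.077 to 0.40 and from -0.091 to 0.52. PSME4 (PA200, a cap linked to histone degradation) had an estimate of -0.31 (edgeR adjusted p = 0.058). PSMF1 (PI31), a 20S-binding protein, had 1290, 1274 and 1150 in vehicle, 1588, 1510 and 1494 under VPA and 1583, 1543 and 1473 with rapamycin added, and rose by 0.30 in VPA (SE 0.10, edgeR adjusted p = 0.044). Its neighbour TMEM74B, which overlaps it on the other strand with 20.4% of its count, also rose (log2 fold change 0.92, edgeR adjusted p = 0.010).

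**Figure D3:**
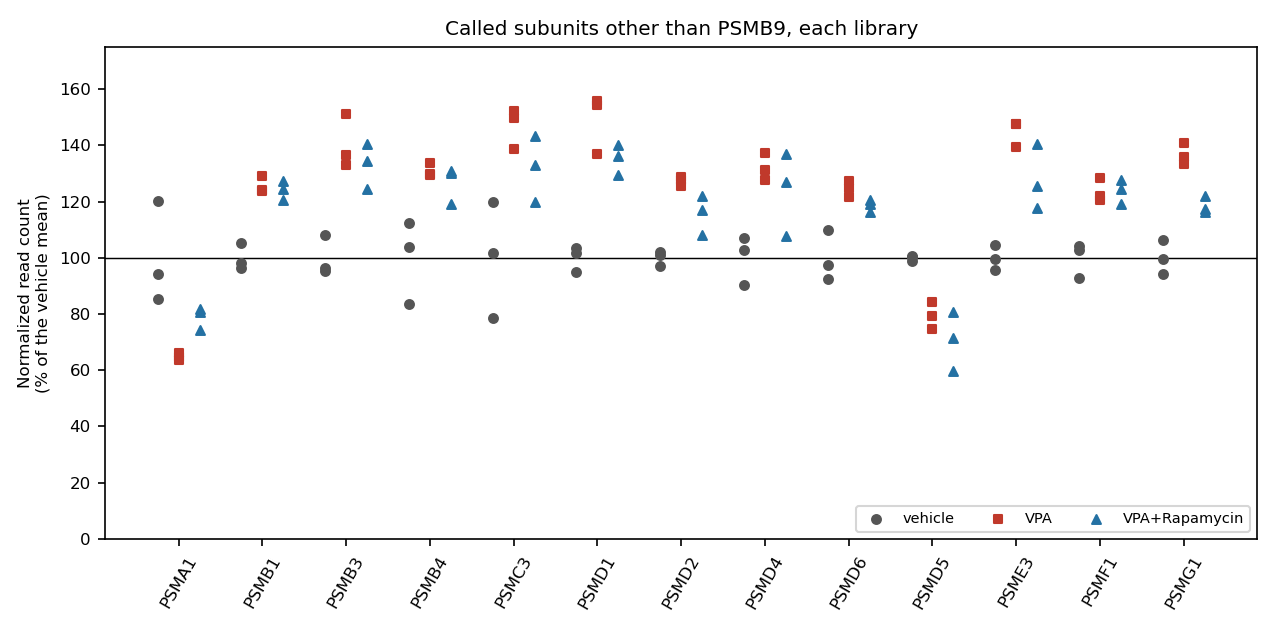
Level of the 13 called subunits other than PSMB9 in each library, as a percent of the vehicle mean (points, 3 libraries in each group). PSMA1 and PSMD5 lie under 100 in the VPA libraries and the 11 others above 100.

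A single subunit passed the test when rapamycin was added to VPA. In VPA+Rapamycin against VPA, 0 of 45 tested subunits rose and 1 fell, PSMB9, where 3.01% of the 17317 genes tested rose and 3.73% fell. By edgeR 1 subunit had an unadjusted p under 0.05 with a higher estimate and 8 with a lower, and DESeq2 called 0 raised. The shares of all genes by unadjusted p are not given here. Estimates were lower for 35 subunits and higher for 10, where 8544 of all genes tested had a lower estimate and 8773 a higher. The median log2 fold change of the subunits was -0.075 against 0.0039 over all genes. In the lid 8 of 8 estimates were lower, with a median of -0.082, and in the 20S chaperones 4 of 4, with a median of -0.18. In the alpha ring 5 of 7 estimates were higher, with a median of 0.0030. The 95% intervals of the 31 constitutive 26S subunits lay between -0.50 and 1.05. PSMB5 had an estimate of -0.24 (95% interval -0.44 to -0.048, edgeR adjusted p = 0.13), and PSME1 of -0.24 (edgeR adjusted p = 0.092). The number lowered was 0 without VPA library 2 or 3 and without VPA+Rapamycin library 1 or 3.

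In VPA+Rapamycin against vehicle, 3 of 44 tested subunits rose (6.82%: PSMB3, PSMD1 and PSME3) and 1 fell (2.27%: PSMD5), where 9.81% of the 17383 genes tested rose and 9.22% fell. Estimates were higher for 31 subunits and lower for 13, where 8678 of all genes tested had a higher estimate and 8705 a lower. The median log2 fold change of the subunits was 0.15 against -0.00087 over all genes. PSMA7 (0.31) and PSMB1 (0.30) missed the threshold with edgeR adjusted p-values of 0.052 and 0.059. The number raised was 8 without vehicle library 1, 0 without vehicle library 2, 6 without vehicle library 3, and 0, 1 and 0 without VPA+Rapamycin library 1, 2 and 3. The number lowered was 3 without vehicle library 1 and 0 without vehicle library 2 or without VPA+Rapamycin library 2 or 3. For these fits, too, the shares of all genes called are not given here. With the replicate number as a block, 5 rose and 1 fell. Scaling by library totals alone gave 7 raised, and moved the share of raised genes among all calls from 51.6% to 62.1%.

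The subunits, which the 26S particle holds in fixed numbers, were read at very different levels. In CPM (the reads of a gene as a share of its library) per kilobase of the listed gene length, the 31 constitutive subunits had a median of 21.3 in vehicle, 28.7 under VPA and 26.1 with rapamycin added. PSMA7 (64.2 ± 2.4), PSMB4 (62.1 ± 9.1) and PSMB7 (55.5 ± 6.6) were the highest in vehicle (SD, n = 3), and these neighbours did not differ beyond their spread. The lowest were PSMA6 (0.501 ± 0.097), PSMA2 (1.76 ± 0.35) and PSMC1 (4.55 ± 0.71), and each stood apart from the next by more than its spread. The highest level was 128 times the lowest. The 3 lowest, in that order, had listed lengths of 6506, 5336 and 6161 bases, and the 3 highest 1750, 2158 and 1787. A longer listed length gives a lower level per kilobase. PSMA6 overlaps AL121594.1 on the same strand over 38842 bases, and PSMC1 overlaps NRDE2 on the other strand over 7574 bases, with NRDE2 at 54.3% of its count. PSMA2 shares only 24 bases with MRPL32 on the other strand. The pseudogene PSMC1P1 had a mean count of 48.2. The part of these overlaps and of the listed lengths in the low levels was not tested. For comparison, PSMB8 stood at 0.679, PSMB10 at 0.264 and PSMB9 at 0.0748 in vehicle.

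**Figure D4:**
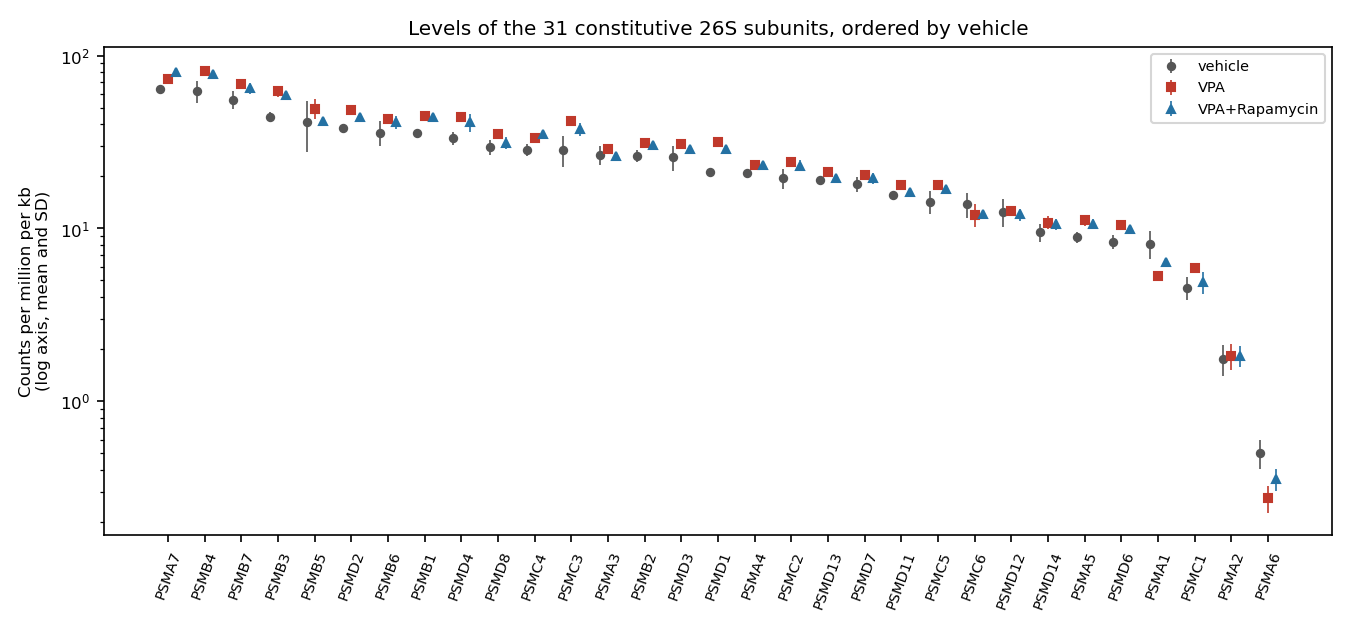
Level of the 31 constitutive 26S subunits in CPM per kilobase on a log axis, ordered by vehicle, with the mean and SD of 3 libraries for each group. The order runs from PSMA7, at 64.2 in vehicle, to PSMA6, at 0.501, and the VPA points lie mostly above the vehicle points.

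Vehicle libraries were the least alike in these genes. The coefficient of variation over 3 libraries had a median of 11.7% in vehicle over the 31 subunits, 4.98% under VPA and 6.04% with rapamycin added. It was highest for PSMB5 in vehicle, at 32.8%. Vehicle library 3 was the lowest of the vehicle libraries for 15 subunits and the highest for 11, and vehicle library 1 the lowest for 11 and the highest for 14. The subunits thus did not share a single order of libraries. The wide vehicle spread was not shown to be particular to the subunits. Measured as a chi-square per gene, pairs of libraries differed by 13.5 to 39.1 in vehicle, 4.75 to 7.56 in VPA and 6.55 to 14.4 in VPA+Rapamycin. Neuron markers, with sums from 14800 to 24994, were also spread most widely in vehicle, and the part of tissue makeup in this spread was not tested.

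Genes that work with the proteasome but lie outside the naming rule were read from 5 lists. Of 11 proteasome parts and partners, 1 rose and 2 fell in VPA against vehicle, where 16.4% of all genes tested rose and 15.7% fell. On 11 genes these counts are near those shares. ADRM1, a ubiquitin receptor docked on PSMD1, had 553, 426 and 391 normalized counts in vehicle, 702, 710 and 733 under VPA and 720, 725 and 596 with rapamycin added, and rose by 0.64 (SE 0.14, edgeR adjusted p = 0.0061). ECPAS, a proteasome adaptor, fell by 0.54 (SE 0.11, edgeR adjusted p = 0.0033), and ZFAND5, a proteasome activator, by 0.56 (SE 0.13, edgeR adjusted p = 0.0093). All 3 kept these calls in VPA+Rapamycin against vehicle. Of 6 shuttle receptors, which carry ubiquitinated proteins, 0 rose and 1 fell, which is near the 15.7% of all genes that fell. This was UBQLN2, which fell by 0.52 (SE 0.12, edgeR adjusted p = 0.0081). On the list of ubiquitin supply and p97, NSFL1C, a p97 cofactor, rose by 0.55 (SE 0.14, edgeR adjusted p = 0.012). UBA6, an E1 enzyme, fell by 0.50 (SE 0.12, edgeR adjusted p = 0.011).

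Of 7 transcriptional regulators of proteasome genes, 0 rose and 1 fell under VPA, which is near the 15.7% of all genes that fell. MAFF, a small MAF partner of these factors, fell by 0.76 (SE 0.24, edgeR adjusted p = 0.031). NFE2L1 was not called in any of the 3 comparisons, with an estimate of -0.12 in VPA (SE 0.10, edgeR adjusted p = 0.37). On the 5 lists, the single call between VPA+Rapamycin and VPA was NFE2L2, the antioxidant response factor, which had 643, 580 and 869 normalized counts in vehicle, 886, 864 and 754 under VPA and 636, 489 and 628 with rapamycin added, and fell by 0.51 (SE 0.11, edgeR adjusted p = 0.0074). Over all genes tested in that comparison, 3.01% rose and 3.73% fell.

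Of the 10 genes of interferon signalling and antigen processing, 4 rose and 3 fell under VPA, where 16.4% of all genes tested rose and 15.7% fell, and the median was 0.41 on the log2 scale against -0.0030 over all genes. TAP1 (chr6:32845209-32853978), which carries peptides into the endoplasmic reticulum, had 55.7, 70.7 and 58.3 normalized counts in vehicle, 193, 227 and 226 under VPA and 134, 199 and 176 with rapamycin added. It rose by 1.80 in VPA (SE 0.20, edgeR adjusted p = 0.00011) and by 1.45 in VPA+Rapamycin against vehicle (SE 0.23, adjusted p = 0.0023). Between VPA+Rapamycin and VPA its estimate was -0.34 (edgeR adjusted p = 0.24), where that of PSMB9 was -1.74, and the difference between the genes was not tested. B2M, the light chain of MHC class I, had 1394, 1311 and 1232 in vehicle, 2046, 1988 and 1731 under VPA and 1794, 1517 and 1528 with rapamycin added, and rose by 0.54 in VPA (SE 0.11, edgeR adjusted p = 0.0033). TAPBP, which links the transporter to MHC class I, fell by 0.55 in VPA (SE 0.14, edgeR adjusted p = 0.012), and STAT2, an interferon signal transducer, by 0.44 (SE 0.11, adjusted p = 0.013). NLRC5, an activator of MHC class I genes and a member of this list that was picked for naming after its values were seen, had 10.7, 2.18 and 3.07 in vehicle, 19.7, 17.3 and 20.6 under VPA and 9.82, 13.5 and 9.37 with rapamycin added, and rose by 1.80 in VPA (SE 0.59, edgeR adjusted p = 0.038). The list thus did not move in a single direction.

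**Figure D5:**
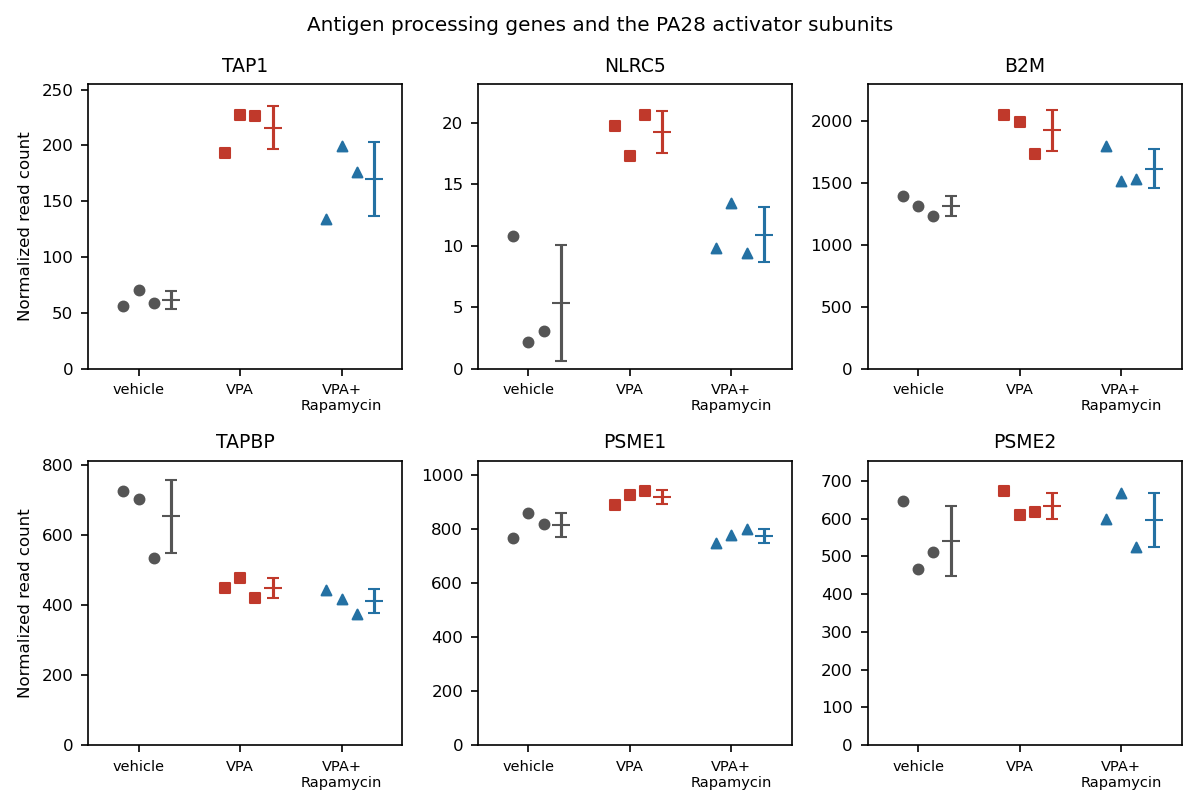
Normalized read count per library (points) with the mean and SD per group (bars, n = 3) for TAP1, NLRC5, B2M, TAPBP, PSME1 and PSME2. The VPA libraries stand above vehicle for TAP1, NLRC5 and B2M and below it for TAPBP.

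Overlap between genes bears on several of the subunits. Of the 47, 28 share bases with another listed gene, and for 20 the overlapping gene had over 10% of the count of the subunit. Among the called subunits these were PSMB9 (TAP1), PSME3 (BECN1, 16.5%), PSMF1 (TMEM74B) and PSMD5 (CUTALP, 69.6%). PSMA1 was not among them, as AC018523.2 had 0.155% of its count, although the 2 genes share 15471 bases on the same strand. BECN1 and CUTALP were not called in VPA against vehicle (0.075 and -0.063, edgeR adjusted p = 0.71 and 0.75). Without the 20 subunits, 9 rose and 1 fell (PSMA1) in VPA against vehicle, 0 rose and 0 fell in VPA+Rapamycin against VPA, and 2 rose and 0 fell in VPA+Rapamycin against vehicle. How reads in shared bases were assigned is not given, and the part of the overlap in the PSMA1 call was not tested.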

How the data were processed

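Poly(A) RNA of whole organoids was sequenced. Per the labels' processing notes the authors used HISAT2 (2.0.5) and featureCounts (1.5.0-p3), and they deposited raw read counts per gene together with gene lengths, FPKM and their own DESeq2 comparisons, which hold fold changes and p-values and were not used here. Whether strand was used and how reads in overlapping genes were treated is not given in the sources used here. The start, end and strand of all 47 subunits were identical to GENCODE 29 on GRCh38. Counts per library totalled 15290299 to 17417338, which limits the precision of the rarest subunits. Replicate libraries all differed by more than counting noise.

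Each comparison was fitted to the deposited counts of its own table (6 libraries) with edgeR (4.0.16, R 4.3.3): filterByExpr, TMM scaling, glmQLFit and glmQLFTest, Benjamini-Hochberg adjustment over all genes tested, and a threshold of 0.05. A subunit called raised or lowered passed it. Levels are normalized counts, TMM-scaled over the 9 libraries to a common depth. Levels between genes are CPM per kilobase of the deposited gene length. Tests of a single gene by exact permutation could not go below p = 0.1 with 3 against 3 and were not used. Ratios of summed counts carry exact 95% intervals. The scripts were tested on simulated data. DESeq2 (1.42.0), other scalings and filters, a single fit, a replicate block, protein-coding genes alone and leaving out each library were the alternatives. Leaving out overlapped subunits was chosen after seeing the data.

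Members and lists were chosen with earlier results of these data known. Library values are given for the 6 catalytic subunits, each subunit with an adjusted p of at most 0.05 in any comparison and subunits with under 10 counts in every library, and at most 4 genes are named in each other list by smallest adjusted p. The result of 1 gene on these lists is not reported here. Endothelium markers summed to 76.7 to 132 normalized counts in vehicle, 88.2 to 118 under VPA and 56.2 to 89.4 with rapamycin added, neural crest markers to 424 to 765, 59.1 to 73.2 and 115 to 198, and trunk HOX genes to 2199 to 3248, 1185 to 1405 and 1614 to 2079.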

Additional observations from a re-analysis of the deposited data

How the results depend on the processing

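In VPA against vehicle, the number of subunits raised (12) stayed within 1.5 times under each alternative other than leaving out a library, which gave 4 to 20. For fits with a library left out, the shares of all genes called are not given here. The number lowered (2) was 1 with library totals alone, with no filter on low counts, without overlapped subunits and with the replicate block, 4 in the fit over all 9 libraries, and 1 to 3 as libraries were left out. In VPA+Rapamycin against VPA, 0 rose under every alternative run. The number lowered (1) was 0 at a minimum of 10 counts, where PSMB9 was not tested, in the fit over all 9 libraries and without overlapped subunits, and 0 to 1 as libraries were left out. In VPA+Rapamycin against vehicle, the number raised (3) was 6 with upper-quartile scaling, 7 with library totals alone, 9 in the fit over all 9 libraries, 5 with the replicate block and 0 to 8 as libraries were left out. The number lowered (1) was 0 without overlapped subunits and 0 to 3 as libraries were left out. The median log2 fold change of the subunits was 0.19 to 0.26 in VPA against vehicle as libraries were left out. It was 0.20 with library totals alone in VPA+Rapamycin against vehicle, and 0.13 to 0.20 as libraries were left out. The sign of 2 small estimates that did not pass the test turned in that comparison: PSMB5 went to -0.0063 over protein-coding genes alone and ran from -0.21 to 0.26 as libraries were left out, and PSMB8 from -0.35 to 0.18. The causes were not tested. Whether the replicate numbers pair libraries by clone is not given, and the values do not show it in every comparison: same-numbered libraries had correlations of deviations from -0.13 to 0.089, -0.072 to 0.13 and 0.077 to 0.31 in the 3 comparisons, and 2, 2 and 4 of 6 libraries correlated best with their own number. With the replicate block, 9 rose and 1 fell in VPA against vehicle, 0 and 1 in VPA+Rapamycin against VPA, and 5 and 1 in VPA+Rapamycin against vehicle. Depth limits the rarest genes: PSMB9 and PSMB10 had 2 to 13 counts in each vehicle library.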
